A study of Ovis aries with 62 samples.

Results

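The genes followed here are 6 hubs of the epithelial part of a rumen gene network, measured in 62 adult Merino ewes. These genes have roles in protein folding, membrane traffic, export from lysosomes or signalling at membranes. They are *P4HB* (ENSOARG00000018038), *MAL* (ENSOARG00000014211), *CLTB* (ENSOARG00000002207), *LMBRD1* (ENSOARG00000011965), *CD2AP* (ENSOARG00000011675) and *PRKCH* (ENSOARG00000021134), out of 16011 genes measured. They were chosen by their many links in the network, that is by the number of other genes with which their levels had a Pearson's *r* above 0.8 over all 62 sheep. Links and correlations are therefore given below as a description, with no test. The sheep, daughters of 4 sires, were all fed the same lucerne and oat chaff ration and were tested in blocks, which are test periods of 4 weeks, of 16 (block 1), 16 (block 2), 14 (block 3) and 16 animals (block 4). The labels give the block, live weight, CH4 production and dry matter intake (DMI) of each ewe, and no other treatment or genotype. RNA of the whole ventral rumen wall, epithelium and muscle coat together, was sequenced in 1 library per sheep, and levels are log2 CPM, the reads of a gene scaled to the size of its library. The assigned reads per library were 4754572 to 9316064 in block 1 (median 6812019) and 4208032 to 12130080 in blocks 2–4 (median 8567270).

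The surface of the rumen is a stratified squamous epithelium that cornifies, absorbs the short chain fatty acids made by the microbes and secretes little. Its cells still depend on membrane traffic. Proteins fold in the endoplasmic reticulum (ER), pass the Golgi and are sorted to the apical or basolateral surface, and surface proteins return by endocytosis to be recycled or broken down in lysosomes. *P4HB* encodes protein disulfide isomerase, which makes disulfide bonds in the ER and is also the beta subunit of collagen prolyl 4-hydroxylase. *MAL* encodes a proteolipid of lipid rafts that takes part in transport to the apical surface. *CLTB* encodes a light chain of clathrin, the coat of endocytic and Golgi vesicles. *LMBRD1* encodes a lysosomal membrane protein needed for the export of cobalamin (vitamin B12) to the cytosol. *CD2AP* encodes an adaptor that ties endocytosis and cell junctions to actin. *PRKCH* encodes protein kinase C eta, an isoform of differentiating squamous epithelia. The study placed *P4HB* in its list of epithelial differentiation genes and the other 5 in its list of other metabolism genes, both of which it drew from networks that include these libraries.

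All 6 genes were lower in block 1 than in blocks 2–4, with differences from -0.44 (*CLTB*) to -1.11 (*MAL*) on the log2 scale. The choice of the genes used the same sheep, so this is a description of where they lie, and no *p* of this comparison is independent support for it. Over all genes tested, 3087 of 16011 passed in this direction (19.3%, limma, adjusted *p* under 0.05), and nothing particular to the 6 genes is read from their count. The median difference of all genes was -0.01.

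Among the genes of protein folding and apical sorting, *MAL* had the widest range. It stood at 6.65 to 9.85 log2 CPM in block 1 with a median of 8.58, against 8.92 to 10.46 in blocks 2–4 with a median of 9.51. The groups overlapped, with 11 of the 16 block 1 sheep below the lowest sheep of blocks 2–4 and 4 at or above their median. The mean was 8.43 ± 1.07 log2 CPM in block 1 (SD, *n* = 16) and 9.54 ± 0.30 in blocks 2–4 (SD, *n* = 46), a difference of -1.11 ± 0.17 (SE, adjusted *p* = 4.34e-07), or 0.462 times the level of blocks 2–4. *P4HB* stood at 9.29 to 10.82 log2 CPM in block 1 (median 10.08), against 10.29 to 11.16 in blocks 2–4 (median 10.75). Of the block 1 sheep, 10 were below every sheep of blocks 2–4, and 3 were at or above their median. The means of *P4HB* were 10.15 ± 0.50 log2 CPM in block 1 (SD, *n* = 16) and 10.72 ± 0.19 in blocks 2–4 (SD, *n* = 46), which differed by -0.57 ± 0.09 (SE, adjusted *p* = 5.05e-07).

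The endocytic genes were also lower in block 1. *CLTB* ran from 7.41 to 8.59 log2 CPM in block 1 with a median of 7.90, against 7.98 to 8.91 in blocks 2–4 with a median of 8.39. The groups overlapped, with 9 block 1 sheep below the lowest of blocks 2–4 and 3 at or above their median. The difference of the means was -0.44 ± 0.07 (SE, adjusted *p* = 6.39e-07), with an SD of 0.34 in block 1 and 0.19 in blocks 2–4. *CD2AP* ran from 7.11 to 9.02 log2 CPM in block 1 (median 8.19), against 8.01 to 9.35 in blocks 2–4 (median 8.78). It had the fewest block 1 sheep below all of blocks 2–4, with 6, and 4 were at or above the median of those. Its means differed by -0.59 ± 0.11 (SE, adjusted *p* = 1.54e-05), with an SD of 0.58 in block 1 and 0.29 in blocks 2–4.

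*LMBRD1*, the lysosomal member, ran from 4.80 to 6.48 log2 CPM in block 1 (median 6.01), against 5.96 to 6.95 in blocks 2–4 (median 6.35). Of the block 1 sheep, 7 were below all of blocks 2–4 and 4 were at or above the median of blocks 2–4. Its means differed by -0.52 ± 0.09 (SE, adjusted *p* = 1.55e-05), with an SD of 0.51 in block 1 and 0.25 in blocks 2–4. *PRKCH*, the signalling member, ran from 4.79 to 6.997 log2 CPM in block 1 with a median of 5.93, against 6.37 to 7.17 in blocks 2–4 with a median of 6.61. As with *MAL*, 11 block 1 sheep were below the whole range of blocks 2–4, and 3 reached or passed its median. The means of *PRKCH* differed by -0.72 ± 0.11 (SE, adjusted *p* = 4.85e-07), with an SD of 0.67 in block 1 and 0.23 in blocks 2–4. The lowest values rest on few reads, 139 for *PRKCH* and 180 for *LMBRD1*, while no value of *P4HB* in any sheep rests on fewer than 3480.

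**Figure D1:**
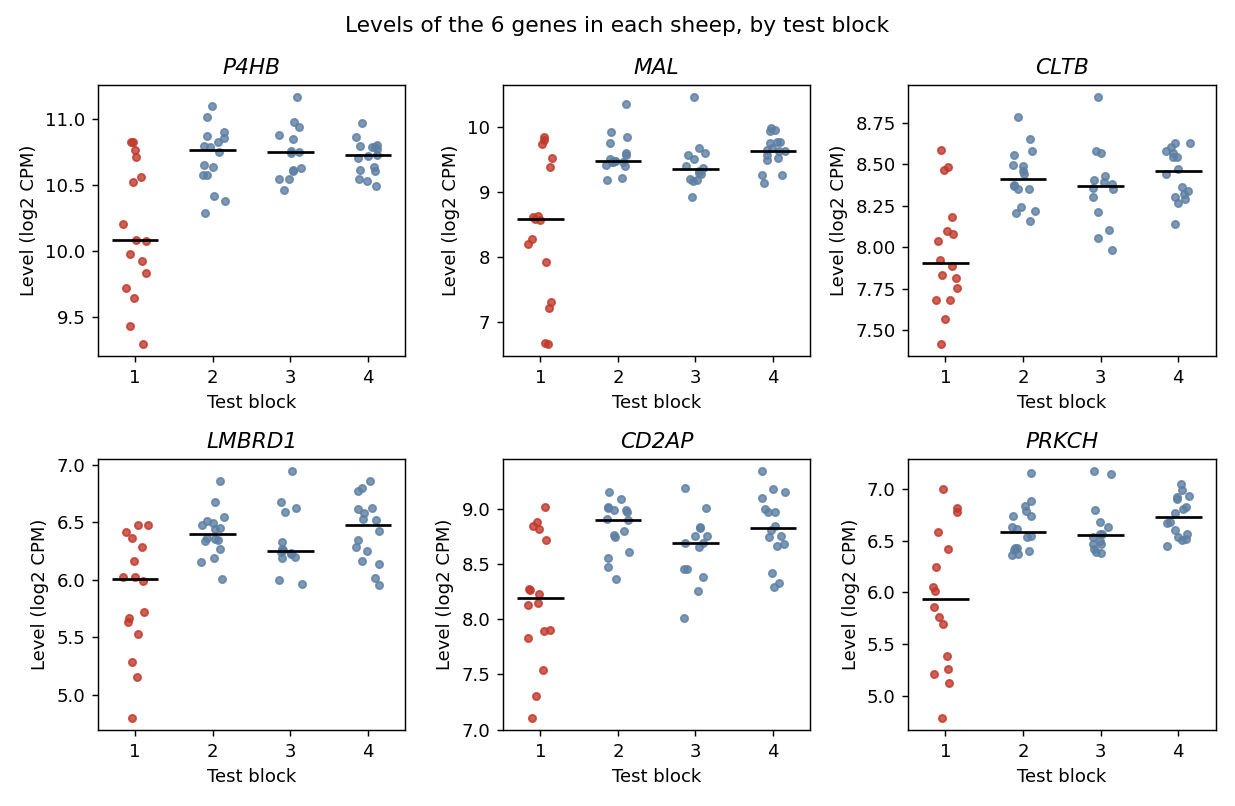
Level (log2 CPM) of each of the 6 genes in each sheep (points), with test blocks 1 to 4 from left to right on the horizontal axis and the block median as a bar. In every gene some block 1 sheep (red) lie among those of blocks 2–4 (blue) and 6 (*CD2AP*) to 11 (*MAL*, *PRKCH*) of 16 lie below all of them.

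The spread of the 6 genes was wider in block 1, and a choice by correlation over all sheep favours such genes. It was not counted over all genes and is not particular to these 6. The SD in block 1 and in blocks 2–4 was 1.64 and 0.33 for the keratin *KRT78*, and 0.64 and 0.64 for the smooth muscle gene *MYH11*. The SD of block 1 was 3.52 times that of blocks 2–4 for *MAL*, 2.97 times for *PRKCH*, 2.71 times for *P4HB*, 2.02 times for *LMBRD1*, 1.99 times for *CD2AP* and 1.80 times for *CLTB*. In fold terms, the highest block 1 sheep had 9.16 times the *MAL* of the lowest, and within blocks 2–4 this ratio was 2.90. For *PRKCH* the ratios were 4.62 in block 1 and 1.75 in blocks 2–4. Limma takes 1 variance for both groups, so the SE and *p* above are too small for genes that spread more in the smaller group.

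Sheep that were low in 1 of the genes were mostly low in the others, which the choice by correlation over these same sheep favours. This is given as a description, and the same count was not made over all genes. Of the 16 block 1 sheep, 6 lay below the whole range of blocks 2–4 in all 6 genes, 4 in 4 genes, 1 in 2 genes and 5 in none. Sheep oz171 had the lowest level of 5 of the genes in block 1 and the second lowest of *PRKCH*, for which sheep oz89 was lowest. At the other end, sheep oz166 had the highest *P4HB*, *CLTB*, *LMBRD1* and *CD2AP* of block 1, and sheep oz10 the highest *MAL* and *PRKCH*. Blocks 2, 3 and 4 did not differ from each other in any of the 6 genes by the test used (F test of limma, adjusted *p* from 0.77 for *CD2AP* to 0.98 for *P4HB*, and 0 of 6 at an unadjusted *p* under 0.05), where 1 gene of all tested passed (0.00625%). Their block medians ran from 9.35 in block 3 to 9.64 in block 4 for *MAL* and from 10.72 in block 4 to 10.77 in block 2 for *P4HB*. Block 1 was lower than each of the other blocks taken alone in all 6 genes. Of all 16011 genes, 1766 were called lower against block 2, 1619 against block 3 and 2363 against block 4. Against block 3, in which adjusted *p* was highest, it ran from 0.0036 to 0.0418.

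The 6 genes rest in a tissue of mixed layers, and the muscle signal moved with the same blocks. The mean of the study's muscle list was 5.71 to 6.63 log2 CPM in block 1 (median 6.33), against 5.02 to 6.41 in blocks 2–4 (median 5.85). All 10 smooth muscle markers examined, among them *MYH11* and *DES*, were higher in block 1 (17.2% of all genes were called higher), with a median difference of 0.54. Of 12 epithelial markers, 10 were lower and *KRT13* and *LAMA3* did not pass, with a median difference of -0.45. The mean of these 12 was 7.59 to 9.23 log2 CPM in block 1 (median 8.57), against 8.67 to 9.36 in blocks 2–4 (median 9.04). Of 8 fibroblast and matrix markers, 5 were higher and none was lower, with a mean of 7.17 to 8.44 log2 CPM in block 1 and 6.90 to 8.89 in blocks 2–4. None of 5 immune markers could be matched by symbol. The tissue is thus represented by abundant markers of both epithelium and muscle. In whole tissue, fewer cells of a type and less RNA per cell cannot be told apart.

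Each of the 6 genes was lower in sheep with a higher muscle mean, in block 1 and outside it. Pearson's *r* with the muscle mean was -0.68 (*CLTB*) to -0.81 (*PRKCH*) over the 16 sheep of block 1 and -0.73 (*PRKCH*) to -0.82 (*CLTB*) over the 46 sheep of blocks 2–4, given as a description since all points share the libraries and their scaling. With the muscle mean as a covariate, the block 1 difference was -0.63 ± 0.15 for *MAL*, -0.39 ± 0.09 for *PRKCH*, -0.30 ± 0.07 for *P4HB* and -0.22 ± 0.05 for *CLTB* (SE, adjusted *p* = 0.00253, 0.00301, 0.00268 and 0.00371 in limma). These 4 genes were still called lower, as were 7.05% of all genes. The other two were not called in that fit, with -0.25 ± 0.09 for *CD2AP* (adjusted *p* = 0.0523) and -0.21 ± 0.08 for *LMBRD1* (adjusted *p* = 0.0564). Within block 1 the levels also moved with depth, with *r* of 0.52 (*LMBRD1*) to 0.65 (*MAL*) between level and assigned reads, while in blocks 2–4 this *r* was -0.41 (*CD2AP*) to -0.14 (*P4HB*). With depth as a covariate all 6 genes were called lower in block 1, with differences from -0.43 (*CLTB*) to -1.01 (*MAL*), and with DMI as a covariate from -0.46 (*CLTB*) to -1.10 (*MAL*). Of all 16011 genes, 2500 were called lower with depth and 2933 with DMI as a covariate. Both of these covariates were chosen after seeing the data.

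**Figure D2:**
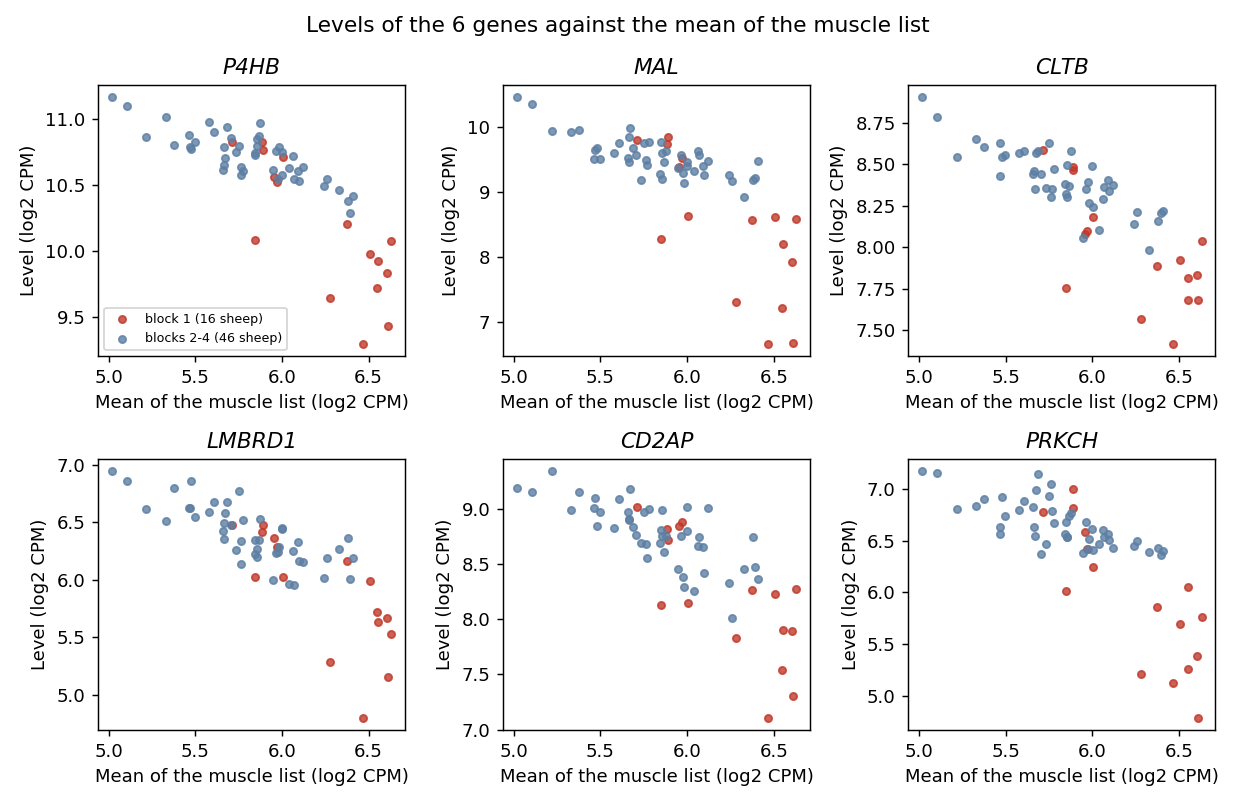
Level (log2 CPM) of each gene (vertical axes) against the mean of the study's muscle list in the same sheep (log2 CPM, horizontal axes), with block 1 in red (16 sheep) and blocks 2–4 in blue (46 sheep). Levels are lower at a higher muscle mean in both sets of sheep, and many block 1 sheep lie below the band of blocks 2–4, most clearly for *MAL* and *PRKCH*.

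The links that chose the genes depended on block 1, as did those of the whole network. Over all genes there were 28566 links without block 1 and 65489 over all 62 sheep, and the median of the genes with a link was 5 links without block 1 and 16 over all sheep. Without block 2, 3 or 4 there were 93639 to 101558. Among the 9939 genes that reached 3 CPM in every library, *P4HB* had 4 links at *r* above 0.8 without block 1 and 284 over all 62 sheep. *MAL* had 5 without block 1 and 270 over all sheep, and *CLTB* 8 and 248 in the same order. *LMBRD1* had 4 without block 1 and 229 over all sheep, *CD2AP* 18 and 225, and *PRKCH* 2 and 220. By number of links the 6 genes stood at places 541 (*CD2AP*) to 1220 (*PRKCH*) without block 1 and at places 23 (*P4HB*) to 91 (*PRKCH*) over all sheep. The highest number of any gene, 308 without block 1 and 342 over all sheep, belonged to a gene of the muscle list in both networks, so the 6 hubs were not the genes with the most links.

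For the 6 genes too, leaving out another block did not lower the number. The median of the 6 genes was 4.5 links without block 1, 317.5 without block 2, 359 without block 3 and 313 without block 4, against 238.5 over all sheep, with 46 to 48 sheep left each time. The fewest links of any of the 6 in these other 3 sets were 285, for *PRKCH* without block 3. With the mean of each block removed from every gene, they had 33 (*CLTB*) to 100 (*MAL*) links. They then stood at places 178 (*MAL*) to 429 (*CLTB*), and the whole network had 28167 links, against 65489 as reported. After quantile normalization over all sheep the median was 164 links, with 163 for *P4HB* and 134 for *CLTB*, and the 6 genes stood at places 152 (*MAL*) to 360 (*CLTB*). With Spearman's correlation, which uses ranks and so weighs the low sheep less, they had 33 (*P4HB* and *PRKCH*) to 64 (*CLTB*). Their places were 424 (*CLTB*) to 623 (*P4HB* and *PRKCH*), in a whole network of 39422 links. At *r* above 0.9 over all sheep *MAL* kept 51 links, *PRKCH* 35 and *P4HB* 30, while *CD2AP* had 12, *CLTB* 7 and *LMBRD1* 5. The whole network had 3500 links at that threshold.

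**Figure D3:**
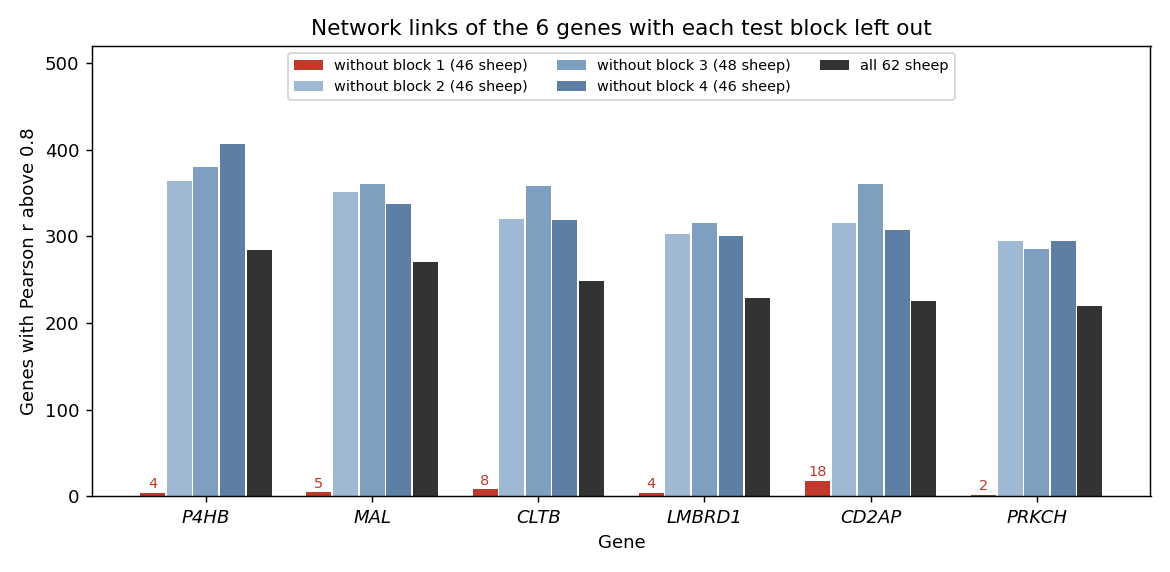
Number of genes linked to each of the 6 genes at Pearson's *r* above 0.8 (vertical axis, from 0), with block 1, 2, 3 or 4 left out and over all 62 sheep (bars from left to right). The bars without block 1 stand at 2 to 18 links, printed above them, and every other bar is at 220 or more.

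The genes at the other end of the links were also counted. Over all sheep, 118 genes were linked to all 6 hubs and 404, hubs included, to at least 1 of them, and without block 1 these counts were 0 and 35. All 4 of the links that *P4HB* had without block 1, all 8 of *CLTB*, all 4 of *LMBRD1* and both of *PRKCH* were also among their links over all sheep. Of the links without block 1, 2 of 5 for *MAL* and 11 of 18 for *CD2AP* were also present over all sheep. Of the genes linked to *P4HB*, 0 of 4 without block 1 and 18 of 284 over all sheep were in the epithelial differentiation list, which holds 43 genes. The other 5 hubs each had 0 such links without block 1, where they had 2 (*PRKCH*) to 18 (*CD2AP*) links of any kind. Over all sheep they had 10 (*CD2AP*) to 15 (*MAL* and *PRKCH*), out of 220 (*PRKCH*) to 270 (*MAL*) links. With so few links left without block 1, no change in the kind of partner is read from the 0 counts. *CD2AP* was linked to 6 of the 41 lipid/oxo-acid metabolism genes without block 1 and to 5 over all sheep, while no other hub had more than 3 such links in either set. None of the 6 was linked to a gene of the muscle, cell cycle or interferon lists in either set. A link counts positive *r* only, so genes that moved against the hubs could not be linked. Over all sheep, 8 (*CD2AP*) to 100 (*CLTB*) genes had *r* below -0.8 with a hub, and 0 (*PRKCH*) to 20 (*CLTB*) without block 1. The lists of these genes were not counted. In each set the lists themselves came from networks that hold these libraries.

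The nearest genes with a symbol also differed. Over all 62 sheep *MAL* was closest to *DUSP14*, a phosphatase gene (*r* = 0.95), the keratin *KRT78* (0.95) and *PRKCH* (0.95), and *PRKCH* to *MAL* (0.95), *KRT78* (0.93) and *DUSP14* (0.93). *P4HB* was closest to *ENDOU*, which encodes an endoribonuclease (0.93), the rhomboid protease gene *RHBDL2* (0.93) and the protease gene *TMPRSS11B* (0.93). Without block 1, *r* of these pairs was lower, at 0.69 for *MAL* and *KRT78*, 0.68 for *MAL* and *DUSP14*, 0.77 for *P4HB* and *ENDOU* and 0.80 for *P4HB* and *RHBDL2*. Of the 3 nearest genes, *MAL* and *PRKCH* had 0 in common between the sets of sheep, and the other 4 hubs had 1 each.

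Over the 46 sheep of blocks 2–4, *P4HB* was closest to the phosphatase gene *PPP1CA* (*r* = 0.84), *DERL2*, which takes part in the removal of misfolded proteins from the ER (0.80), and *RHBDL2* (0.80). *MAL* was closest to the glutathione transferase gene *MGST3* (0.84), *CLTB* (0.82) and *ETHE1*, of mitochondrial sulfide oxidation (0.82). *PRKCH* was closest to *GRAMD1C*, a sterol transfer gene (0.78), *ARPC5L*, of the actin-nucleating Arp2/3 complex (0.77), and *CLTB* (0.76). The pair of *MGST3* and *MAL* had *r* = 0.76 over all sheep, below its value without block 1.

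For *CLTB*, *LMBRD1* and *CD2AP* the named neighbours included other hubs in at least 1 of the sets. *CLTB* was closest to *MAL* (*r* = 0.82), *ARPC5L* (0.82) and *LMBRD1* (0.82) over blocks 2–4, against *P4HB* (0.92), *MAL* (0.91) and *TMEM66* (0.90), a regulator of calcium entry, over all sheep. *LMBRD1* was closest to *CLTB* (0.82), the junction protein gene *MPZL2* (0.81) and the histone deacetylase gene *HDAC1* (0.80) over blocks 2–4, against *MPZL2* (0.91), *TMEM66* (0.90) and *ARPC5L* (0.89) over all sheep. *CD2AP* was closest to *AKR1D1*, a steroid reductase gene (0.85), *MGST3* (0.84) and *ACSF2*, an acyl-CoA synthetase gene (0.83), over blocks 2–4. Over all sheep its nearest were *MAL* (0.92), the actin-binding *POF1B* (0.92) and *AKR1D1* (0.90). Symbols were at hand for 1224 genes only, so genes without one may lie closer.

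Among themselves the 6 genes were most alike in block 1. The 15 pairs had *r* from 0.84 to 0.98 (median 0.92) within the 16 sheep of block 1. Outside block 1 the median *r* within a block was 0.75 for block 2 (0.46 to 0.92), 0.85 for block 3 (0.69 to 0.87) and 0.63 for block 4 (0.38 to 0.91). Every pair was above 0.8 in block 1 and over all sheep, 4 pairs were in block 2, 9 in block 3 and 3 in block 4. Over blocks 2–4 together *r* was 0.57 to 0.82 with a median of 0.72, where *MAL* and *CLTB* (0.82) and *CLTB* and *LMBRD1* (0.82) were the 2 pairs above the threshold and *CD2AP* and *PRKCH* (0.57) were the least alike. After a fit on the muscle mean, the residuals of the pairs had a median *r* of 0.34 over blocks 2–4 (-0.11 for *P4HB* and *CD2AP* to 0.52 for *MAL* and *CLTB*) and of 0.72 over all sheep (0.63 to 0.88). Outside block 1, then, much of the shared movement of the 6 genes lay along the muscle mean, and less of it did when block 1 was included. These *r* describe sheep measured in the same libraries, with 14 to 62 points each.

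**Figure D4:**
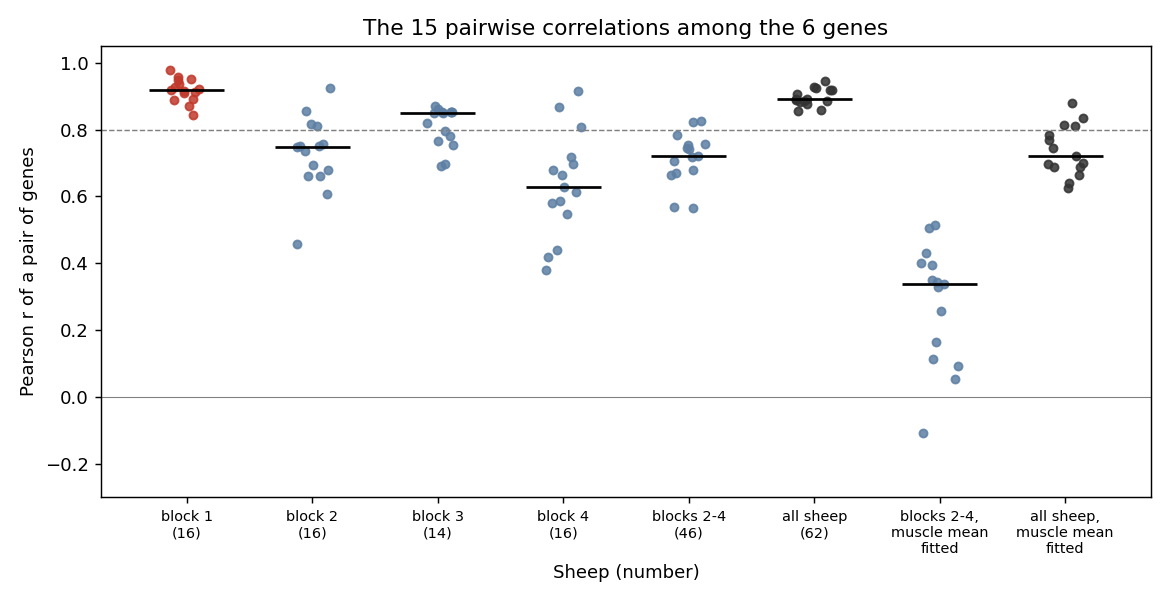
Pearson's *r* (vertical axis) of the 15 pairs among the 6 genes (points, bar at the median) in each test block, over blocks 2–4, over all sheep, and for the residuals after a fit on the muscle mean (horizontal axis, number of sheep in parentheses). The medians are 0.92 in block 1 and 0.34 for the residuals of blocks 2–4, and the dashed line marks the link threshold of 0.8.

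None of the 6 genes was related to CH4 production, CH4 yield, DMI or live weight by the test used. Trait values were not part of the rule that chose the genes, although the genes were picked with earlier results of these data known and block 1, on which their links rest, also differed in intake. For CH4 production (13.4 to 34.6 g/d, *n* = 62), 0 of 6 passed and 0 had an unadjusted *p* under 0.05, and 0.0125% of all genes passed (2 of 16011). The slopes were -0.015 ± 0.013 log2 per g/d for *PRKCH*, -0.013 ± 0.020 for *MAL* and -0.010 ± 0.010 for *P4HB*, and lay between 0.00069 and 0.0017 for the other 3 (SE, adjusted *p* from 0.805 to 0.992 in limma). Sheep oz151 and oz224 carry the same labeled CH4 production, and without sheep oz151, a fit added after seeing the data, 0 of 6 passed as well (adjusted *p* from 0.812 to 0.993). For CH4 yield, CH4 production over DMI, 0 of 6 genes passed in 61 sheep and 0 had an unadjusted *p* under 0.05, and 0% of all genes passed. Sheep oz151 was left out of CH4 yield and DMI, since its labeled DMI of 0.0795 kg/d was far below all others. The slopes on CH4 yield were all positive, from 0.014 ± 0.012 log2 per g/kg for *CLTB* to 0.047 ± 0.028 for *MAL* (SE, adjusted *p* from 0.560 to 0.756). They were larger without sheep oz175, from 0.027 ± 0.014 for *CLTB* to 0.072 ± 0.035 for *MAL*, where 3 of 6 genes had an unadjusted *p* under 0.05 and none passed (adjusted *p* from 0.309 to 0.441). In that fit 2248 of all 16011 genes had an unadjusted *p* under 0.05.

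With DMI, 0 of 6 genes passed and 1, *PRKCH*, had an unadjusted *p* under 0.05, and again 0% of all genes passed. An unadjusted *p* under 0.05 was found for 11.9% of all genes. *PRKCH* had a slope of -0.49 ± 0.21 log2 per kg/d (SE, *n* = 61 sheep, *p* = 0.0246, adjusted *p* = 0.343 in limma), *MAL* of -0.57 ± 0.33 (adjusted *p* = 0.502) and *P4HB* of -0.31 ± 0.17 (adjusted *p* = 0.466). The other 3 slopes were between -0.19 and -0.12 (adjusted *p* from 0.713 to 0.798). With live weight, 0 of 6 passed and 0 had an unadjusted *p* under 0.05, and 0.0187% of all genes passed (3 of 16011). Slopes on live weight ran from -0.011 ± 0.007 log2 per kg (*PRKCH*) to 0.0023 ± 0.0069 (*CD2AP*, SE, adjusted *p* from 0.769 to 0.981).

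On 3 of the 4 traits the sign of slopes differed with and without block 1, although no slope passed either way. On DMI all 6 slopes were positive without block 1, from 0.034 ± 0.117 log2 per kg/d (*PRKCH*) to 0.24 ± 0.14 (*CD2AP*, SE, adjusted *p* from 0.622 to 0.959), and all 6 were negative with it. On CH4 production all 6 were positive without block 1, where *LMBRD1* had 0.017 ± 0.007 log2 per g/d (SE, *p* = 0.0209, adjusted *p* = 0.282 in limma) and *CLTB* 0.012 ± 0.006 (*p* = 0.0408, adjusted *p* = 0.339). In that fit 13.7% of all genes had an unadjusted *p* under 0.05. On CH4 yield, 5 of 6 were negative without block 1 (adjusted *p* = 1.0 for each), and all 6 were positive with it. The block 1 sheep ate more, at 0.826 to 1.67 kg/d (median 1.42), against a median of 1.19 kg/d in blocks 2–4, so block and intake moved together. With block as a term, slopes on DMI ran from -0.16 ± 0.19 (*PRKCH*) to 0.10 ± 0.18 (*CD2AP*, SE, adjusted *p* from 0.964 to 0.995 in limma). Slopes on CH4 yield in that fit ran from -0.0062 (*CD2AP*) to 0.0046 (*MAL*), and none passed. Whether the slopes themselves, rather than the levels, differ between the 4 blocks was also tested, and 0 of 24 tests (6 genes, 4 traits) passed. The 1 test with an unadjusted *p* under 0.05 was that of *LMBRD1* on DMI (*p* = 0.0302, adjusted *p* = 0.813 in limma). For DMI, 6.01% of all genes had an unadjusted *p* under 0.05 in that test.

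**Figure D5:**
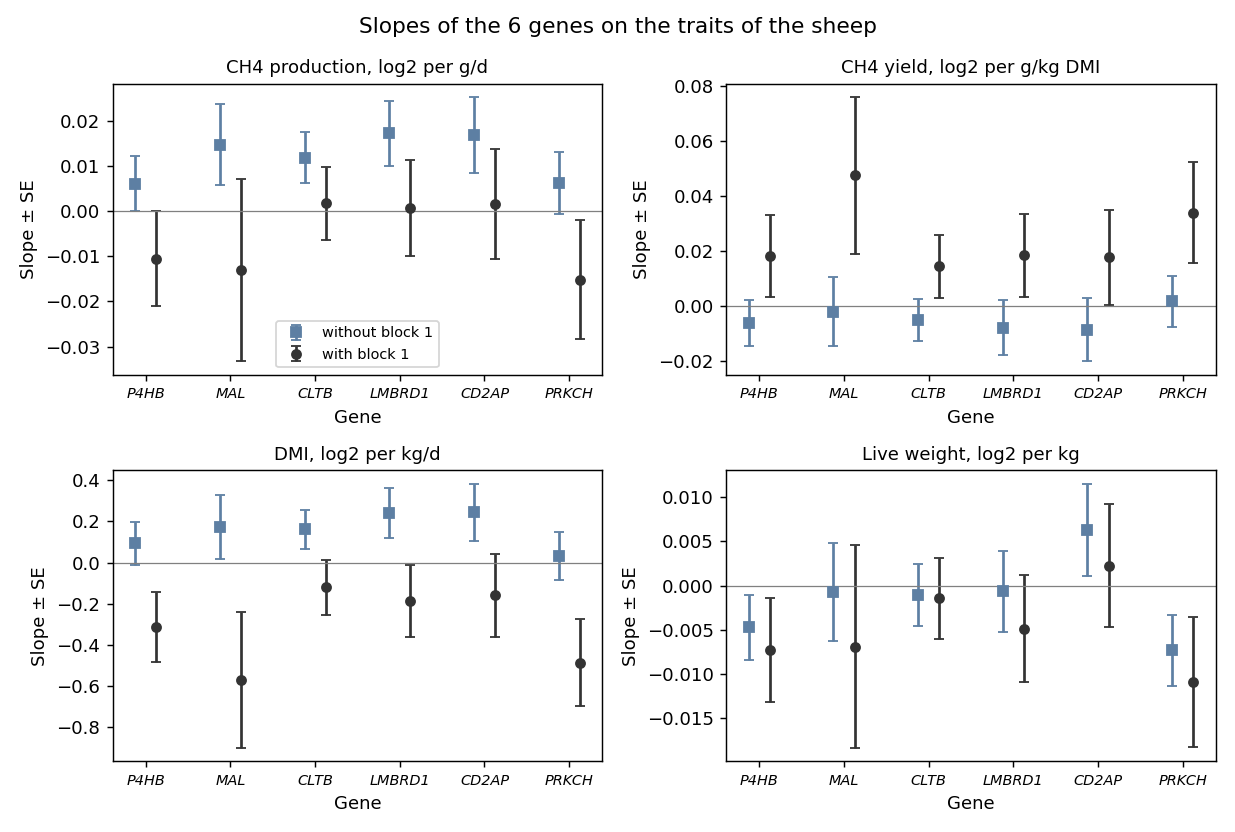
Slope of the log2 level of each gene on CH4 production, CH4 yield, DMI and live weight (1 panel each, bars ± 1 SE), without block 1 (squares) and with it (circles). On DMI the squares lie above 0 and the circles below it for all 6 genes, and none of the slopes passed the test.

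The other measured genes of the same routes were not of 1 direction. Of 66 genes in 8 lists of folding, transport, endocytosis and related steps, 46 were lower in block 1 and 13 higher, and 7 did not pass (19.3% and 17.2% of all genes were called lower and higher). Only genes with a symbol could be matched, and symbols came mostly from genes that the study had picked from networks with these libraries, so the counts are not independent of that choice. Of the 47 that the study placed in its metabolism or epithelial differentiation lists, 46 were lower and 0 higher. Of the 15 in its muscle list, 0 were lower and 9 higher, and the 4 in no list were all higher.

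For protein entry and folding in the ER, the step of *P4HB*, all 18 measured of 23 listed genes were lower, with a median difference of -0.37. Over all genes, 19.3% were called lower. All 18 are in the study's metabolism or epithelial differentiation lists, where 46 of the 47 genes examined were lower. Nothing particular to folding is therefore read from the count. With the muscle mean as a covariate 10 of the 18 were called lower, as were 7.05% of all genes. *PDIA3*, a disulfide isomerase that acts on glycoproteins, had 8.47 ± 0.44 log2 CPM in block 1 (SD, *n* = 16) and 8.97 ± 0.20 in blocks 2–4 (SD, *n* = 46), a difference of -0.49 ± 0.08 (SE, adjusted *p* = 2.09e-06). *SEC11C*, of the signal peptidase, differed by -0.53 ± 0.11 and *MANF*, an ER stress protein, by -0.50 ± 0.10 (SE, adjusted *p* = 0.000153 and 6.99e-05). Neither was called with the muscle mean as a covariate, where *SEC11C* was at -0.25 and *MANF* at -0.26 (adjusted *p* = 0.11 and 0.0665). Of 3 measured genes of collagen modification, *P4HA2*, *PLOD2* and *COLGALT1*, none passed. Only *P4HA2* belongs to the prolyl hydroxylase, the other role of *P4HB*. The collagen prolyl hydroxylase subunit gene *P4HA2* had 4.25 ± 0.40 log2 CPM in block 1 and 4.07 ± 0.47 in blocks 2–4, a difference of 0.18 ± 0.13 (adjusted *p* = 0.274).

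Along the Golgi and endocytic routes the genes divided. Of 14 genes of ER to Golgi and Golgi transport, 8 were lower, 2 higher and 4 did not pass, and *SFT2D2* (-0.60 ± 0.10) and *RER1* (-0.41 ± 0.07), both of retrograde or Golgi transport, differed most (SE, adjusted *p* = 3.27e-06 and 4.22e-06). Of 14 measured genes of endocytosis and recycling, the route of *CLTB* and *CD2AP*, 6 were lower and 8 higher. *EHD2*, of caveolae at the cell surface, was higher by 0.82 ± 0.14 and the sorting nexin *SNX19* by 0.80 ± 0.11 (SE, adjusted *p* = 3.78e-06 and 3.76e-08), and both belong to the study's muscle list. The clathrin genes *CLTA* and *CLTC* were not among the genes with a symbol.

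The lysosomal genes were mostly lower, with 9 lower and 1 higher of the 10 measured, where 19.3% of all genes were called lower. The 9 are all in the study's metabolism lists and the other, *TPP1*, is in none. Nothing particular to lysosomes is read from the count. *GGH*, a lysosomal hydrolase of folate polyglutamates, was lower in block 1 (-0.88 ± 0.17, SE, adjusted *p* = 2.58e-05), while the peptidase gene *TPP1* was higher by 0.95 ± 0.15 (SE, adjusted *p* = 1.14e-06). Downstream of *LMBRD1* in the use of cobalamin, *MMADHC*, which directs cobalamin to its enzymes, differed by -0.23 ± 0.06, and *MUT*, the mitochondrial cobalamin enzyme on the way of propionate to succinyl-CoA, by -0.44 ± 0.11 (SE, adjusted *p* = 0.000981 and 0.000826). They are the 2 genes of this list that were measured, and both calls were lost with the muscle mean as a covariate (-0.08 for *MMADHC* and -0.21 for *MUT*, adjusted *p* = 0.302 and 0.197) and against block 3 alone (adjusted *p* = 0.0945 and 0.0588). Relatives of *MAL* were lower in block 1, with differences of -0.37 ± 0.09 for *MAL2* and -0.37 ± 0.08 for *PLP2* (SE, adjusted *p* = 0.000615 and 0.000356). They too were not called with the muscle mean as a covariate (-0.11 for *MAL2* and -0.20 for *PLP2*, adjusted *p* = 0.375 and 0.121) or against block 3 alone (adjusted *p* = 0.0649 and 0.192). The other protein kinase C genes measured were higher in block 1. *PRKCA* had 5.56 ± 0.39 log2 CPM in block 1 and 5.09 ± 0.38 in blocks 2–4, higher by 0.46 ± 0.11, and *PRKCB* 5.43 ± 0.73 and 4.84 ± 0.69, higher by 0.59 ± 0.19 (SE, adjusted *p* = 0.000528 and 0.0133). With the muscle mean as a covariate neither was called, with *PRKCA* at 0.05 ± 0.07 and *PRKCB* at -0.20 ± 0.11 (SE, adjusted *p* = 0.685 and 0.212), and *PRKCB* was also not called against block 2 or block 4 alone (adjusted *p* = 0.0521 and 0.131). In the fit with the muscle mean 22 of the 66 genes were called lower and 5 higher. Of all 16011 genes, 1129 were called lower and 1171 higher in that fit. For the traits, 0 of the 66 genes passed in limma, while 3 had an unadjusted *p* under 0.05 for CH4 production, 10 for CH4 yield, 7 for DMI and 1 for live weight. The same threshold was met by 1449 of all 16011 genes for CH4 production and by 1521 for CH4 yield. For DMI it was met by 1899 and for live weight by 1318, so nothing particular to the 66 genes is read from their counts.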

How the data were processed

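The deposited table holds voom log2 CPM, made by the authors, for 16011 genes in 62 libraries. The authors made stranded libraries depleted of ribosomal RNA, used TopHat with Bowtie2 to align reads against sheep gene models of Ensembl plus added ones, and counted with HTSeq. EdgeR and limma are also named in the submitters' processing notes. Whole reads were recovered from 100% of the values (tolerance 0.01 reads, offset 0.5). They were used for depth, voom weights, the read counts given for single genes and the simulated data. Here, block 1 was compared with blocks 2–4, and levels were regressed on each trait, with limma 3.58.1 (R 4.3.3, trended empirical Bayes) over all 16011 genes, with Benjamini-Hochberg adjusted *p* and a threshold of 0.05. The step was tested on simulated data. Each *p* takes sheep as independent. Sire is not in the labels. Links are Pearson's *r* above 0.8 among genes that reached 3 CPM in every library. Tables were computed with numpy 2.4.6, pandas 2.3.3 and scipy 1.17.1 in Python 3.11.15, and drawn with matplotlib 3.10.9. Genes named are the 6 hubs, for each the 3 nearest genes with a symbol, up to 2 called genes with the largest difference per list, and family partners where measured. The hubs and lists were chosen with earlier results of these data known. Alternatives covered scaling, weights, filters, covariates, single blocks and sheep with extreme labels. Symbols came from the study's tables. No sequences or coordinates of these genes were used here.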

Additional observations from a re-analysis of the deposited data

How the results depend on the processing

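The hubs were chosen on the same sheep by links that depended on block 1. The refits of the block 1 difference therefore show its dependence on processing only and are no independent support for it. Of all 16011 genes, 3087 were called lower in the main fit and 1129 with the muscle mean as a covariate. All 6 hubs were called lower in block 1 under every alternative run (6 of 6 with a filter at 3 CPM, quantile normalization, equal library medians, voom weights, array weights, the permutation test, single blocks, and, chosen after seeing the data, depth or DMI as a covariate or leaving out the 2 libraries with the fewest reads) except with the muscle mean as a covariate, where 4 were called. In that fit the differences of *CD2AP* and *LMBRD1* were -0.25 and -0.21, and the called genes of the 8 lists numbered 22 lower and 5 higher, against 46 and 13 without it. *PRKCB* turned to -0.20 there and was then not called. Of the 16 named list genes, 8 (*MAL2*, *PLP2*, *MMADHC*, *MUT*, *SEC11C*, *MANF*, *PRKCA* and *PRKCB*) lost their call in at least 1 alternative. No hub was called for any trait under any alternative (lowest adjusted *p* 0.282 for CH4 production, 0.309 for CH4 yield, 0.273 for DMI and 0.333 for live weight), and the sign of the slope turned in 12 of 54, 13 of 48, 9 of 48 and 1 of 42 refits of these traits. The median number of links of the 6 hubs was 238.5 as reported, 677 at *r* above 0.7, 21 at *r* above 0.9, 164 after quantile normalization, 52 with Spearman's correlation, 4.5 without block 1, 359 without block 3 and 71.5 with block means removed. Limits are the depth of the lowest values of *PRKCH* and *LMBRD1*, the unequal spread of the blocks, sire, and symbols for few genes. No paired analysis was possible because the blocks hold different sheep and the labels give no shared replicate numbers.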

Other observations

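Of the 12 epithelial markers, 10 were higher in sheep with a higher mean of the 6 hubs, with *r* over all 62 sheep from 0.57 (*TGM3*) to 0.94 (*KRT78*). The mean of the hubs had *r* = 0.92 with the adhesion gene *EPCAM*, 0.91 with *PERP* and 0.90 with *DSG3*, both of desmosomes. It had *r* = 0.08 with the keratin *KRT13* and -0.08 with *LAMA3*, a laminin chain of the basement membrane. *KRT13* had 10.65 ± 0.92 log2 CPM in block 1 (SD, *n* = 16) and 10.35 ± 0.84 in blocks 2–4 (SD, *n* = 46), with a difference of 0.30 ± 0.24 (SE, adjusted *p* = 0.336 in limma). *LAMA3* had 8.49 ± 0.32 log2 CPM in block 1 and 8.30 ± 0.30 in blocks 2–4, with a difference of 0.19 ± 0.09 (SE, adjusted *p* = 0.0841). These markers were singled out after their values were seen, and the correlations share the libraries and the block 1 sheep with the choice of the hubs.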
